A study of Rattus norvegicus with 20 samples.

Results

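Dorsal root ganglia (DRGs), the clusters of sensory neuron cell bodies that lie beside the spinal cord, were compared between rats with a chronically entrapped sciatic nerve and rats with a severed one. The 3 DRG arrays labelled entrapment of 6 months and the 3 labelled denervation of 6 months were taken by the labels of their own scanner files, 6 of the 20 arrays of the series, and were set directly against each other without the sham control. The question was which miRNAs differ in the ganglia between a nerve that is enclosed but continuous and a nerve that has lost its target.

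All rats were adult males of the Sprague-Dawley stock, with no engineered allele in either group. For denervation, the nerve was cut in the thigh, a 1 cm piece was taken out, and the ligated stump was moved into the thigh muscle so that it could not grow back. In the entrapment group a silastic tube that did not constrict the nerve lay around it for 6 months, so the axons were not transected by the surgery. The DRGs were the L4-L6 ganglia of the operated side, whole ganglia that hold neurons, satellite glia, Schwann cells, vessels and leukocytes. In such bulk tissue fewer cells of a type and less RNA per cell cannot be told apart. The methods give 3 rats per group for the arrays, and neither they nor the labels say which replicate is which rat, so the p-values measure the spread between these arrays. A further 3 DRG arrays, of rats whose tube was removed after 6 months and which were then kept for 3 months (decompression group), were used for the estimate of spread and as the most similar condition.

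A miRNA is a short RNA that guides a silencing complex to messenger RNAs, mainly by pairing of its seed, the bases 2 to 8 from its 5′ end. It is cut from a hairpin with 2 arms, and the strand that is usually kept is written without an asterisk and the other with one in the older names used on this array. After axotomy the cell bodies of sensory neurons are known to switch their gene programme towards regrowth, satellite glia around them proliferate and macrophages enter the ganglion, and several miRNAs are known to take part in these responses.

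The mature sequences of the miRNAs on which the comparison turned are shown first, since relatives with the same seed did not always move together. The RefSeq tables for the rat build GRCr8 held 44 of the 48 names looked for. In each sequence, written 5′ to 3′, the capitals mark the seed. The first set was called lower after entrapment than after denervation and includes the pair miR-221 and miR-222, which share the seed GCUACAU.
miR-21: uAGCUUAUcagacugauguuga
miR-9: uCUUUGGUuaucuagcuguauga
miR-212: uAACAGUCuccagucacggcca
miR-221: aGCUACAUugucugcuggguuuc
miR-222: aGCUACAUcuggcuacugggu
miR-126*: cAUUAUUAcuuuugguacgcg
miR-190: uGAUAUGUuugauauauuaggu
miR-146b: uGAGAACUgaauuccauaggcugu
miR-146a carries the same seed as miR-146b and did not pass the test.
miR-146a: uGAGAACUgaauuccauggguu
In the miR-30 family, miR-30c and miR-30e were called lower and miR-30a was not called, although all 3 have the seed GUAAACA.
miR-30c: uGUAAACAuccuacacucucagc
miR-30e: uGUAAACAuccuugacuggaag
miR-30a: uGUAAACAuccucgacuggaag
The next set was called higher after entrapment, with miR-34b and miR-34c, which share the seed of miR-34a and did not pass the test, shown after it.
miR-34a: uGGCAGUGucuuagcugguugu
miR-34b: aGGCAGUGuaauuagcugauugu
miR-34c: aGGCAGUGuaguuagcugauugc
miR-7a: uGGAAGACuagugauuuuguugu
miR-551b: gGCGACCCauacuugguuucagu
miR-183: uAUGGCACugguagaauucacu
miR-96: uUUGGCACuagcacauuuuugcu
The hairpin mir-29a, at chr4:60617955-60618042 on the minus strand of GRCr8 and 88 bases long, was the only one of 30 with both strands tested whose strands were called in opposite directions. miR-29a* was detected on no entrapment array, and its call carries a limit given below. The capitals in the hairpin mark the mature strands, miR-29a* first and miR-29a second.
mir-29a: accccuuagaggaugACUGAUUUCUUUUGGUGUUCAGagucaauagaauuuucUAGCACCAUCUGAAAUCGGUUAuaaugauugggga

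The scanner files that the authors deposited give every miRNA a total gene signal, which is a background-subtracted intensity, and a detection call. Of 350 miRNAs on the array, 348 had 1 name in every file. The denervation arrays detected 213 to 225 of them, the entrapment arrays 183 to 186 and the decompression arrays 187 to 200. The 75th percentile of the signal was also higher on the denervation arrays, 97.5 to 117, than on the entrapment arrays, 72.0 to 88.1. Each array was therefore scaled to a common 75th percentile, and the values below are these scaled signals in arbitrary units, with signals under a detection floor of 2.21 set to the floor. Of 45 control features, which hold no rat miRNA, 29 (64.4%) had entrapment and denervation values that did not overlap, 11 lower and 18 higher after entrapment when scaled. Of the 20 with a signal over 50 on all 6 arrays, 11 were higher and 0 lower when scaled. Their scaled log2 differences, entrapment minus denervation, were 0.56 to 0.59 for the hur_2 features and 0.75 to 0.81 for the mr_1 features. These sizes are like those of most miRNAs called higher below. Before scaling, the negative control read -19.0, -16.2 and -24.7 on the denervation arrays and 13.8, 9.54 and -6.95 on the entrapment arrays. Handling of the arrays that differed between the groups would also move these features, and its part in the results was not tested.

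The deposited table of processed values named the arrays otherwise than the scanner files did. Its columns named entrapment equalled the scanner files labelled decompression, and its columns named decompression equalled those labelled entrapment, up to 1 constant per array, whereas the denervation columns matched. The table's values are linear, with column medians of 0.0869 to 0.187 over the 9 injury arrays, and how the constants were chosen is not given in the sources used here. The results below follow the scanner labels. With the files labelled decompression put in the place of entrapment, 58 miRNAs were lower and 18 higher than in denervation, and 55 and 14 of these were also called under the scanner labels. The decompression values are given for part of the miRNAs, and a call that is lost under this exchange is named where the miRNA is described.

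Between entrapment and denervation, 69 of the 215 miRNAs tested were downregulated and 18 were upregulated after entrapment (32.1% and 8.37% of those tested, 40.5% together; limma, adjusted p under 0.05). The largest difference among miRNAs detected on all 6 arrays was that of miR-126*, the partner strand of the endothelial miR-126. The growth-associated and injury-associated miR-21, miR-221 and miR-222 were lower after entrapment, as were miR-9 and miR-212 of neurons and miR-30b-5p and miR-30c. The neuronal miR-124, miR-7a and miR-128, the sensory neuron miRNAs miR-183 and miR-96, and miR-34a were higher after entrapment, but without scaling none of these 6 was called, and miR-128 and miR-96 turned to -0.04 and -0.17 on the log2 scale.

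The test covered miRNAs detected on at least 3 of the 9 injury arrays. The entrapment and denervation values did not overlap for 109 of the 215 (50.7%), 80 of them lower (37.2%) and 29 higher (13.5%) after entrapment. With signals at the floor kept there, the difference reached 2-fold for 29 of the called lower miRNAs (13.5% of those tested) and for 1 of the called higher ones, miR-551b (0.465%). Many of the 29, such as miR-190, miR-222 and miR-374, reached the minimum of 3 arrays only through the denervation arrays, which favours a lower call. Of all called lower, 18 were on no entrapment array, whereas 0 tested miRNAs were on all 3 entrapment arrays and no denervation array. The median log2 difference over all tested miRNAs was -0.15. It was -0.06 over the 174 detected on all 6 arrays, among which 43 were called lower and 18 higher. Without scaling, 133 miRNAs were lower and 1, miR-551b, was higher (median -0.59). With quantile normalization 38 were lower and 48 higher (median 0.03). The balance of lower and higher calls therefore depends on the scaling, and single directions are given with the scalings that change them.

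**Figure D1:**
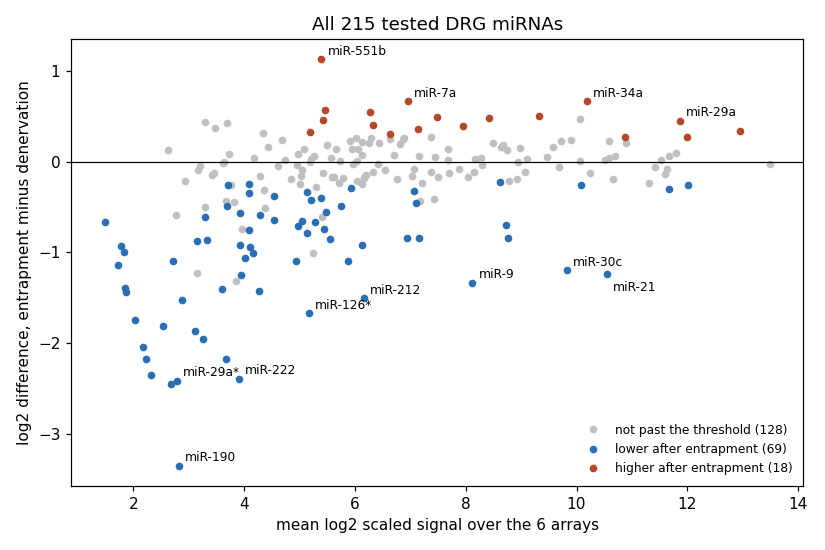
Each point is 1 of the 215 tested DRG miRNAs, with its mean log2 scaled signal over the 6 arrays on the horizontal axis and its log2 difference, entrapment minus denervation, on the vertical axis. The 69 lower miRNAs reach further from 0 than the 18 higher ones, and those at the lower left had low signals on the entrapment arrays, some of them at the detection floor.

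Among miRNAs linked to nerve injury, 4 of 10 tested were lower after entrapment (miR-21, miR-221, miR-222 and miR-212), 1 was higher (miR-34a) and 5 did not pass the test, with a median log2 difference of -0.47 beside -0.15 over all tested miRNAs. The same 4 were lower under all 5 other scalings tried. miR-21 is known to rise in axotomized sensory neurons and to favour survival and growth. It read 2335, 2259.6 and 2289.98 on the 3 denervation arrays, 857, 1134 and 942 on the 3 entrapment arrays and 959, 1060.2 and 1037 on the 3 decompression arrays. Every denervation array lay well above every entrapment array, and the difference was 2.36-fold (log2 -1.24 ± 0.11 SE, adjusted p = 4.16e-05).

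miR-221 and miR-222 lie within 1 stretch of the X chromosome, chrX:6022682-6023268, and share their seed. miR-221 read 55.1, 51.9 and 54.3 after denervation, 34.4, 36.95 and 38.4 after entrapment and 36.5, 36.8 and 38.6 after decompression. miR-222 read 36.2, 34.1 and 32.7 after denervation and 6.51, 5.34 and 8.01 after entrapment, where none of the 3 arrays detected it. Both groups stood apart for each of the 2 miRNAs. The log2 difference of miR-221 was -0.56 ± 0.07 SE (adjusted p = 0.000418), and miR-222 was 5.26-fold lower after entrapment. For miRNAs on no entrapment array, the fold sets the mean of the denervation arrays against a value on each entrapment array. That value is the lowest detected signal, or the signal of the miRNA itself where that was higher. Where the lowest detected signal replaced a value, the fold is a bound, written as at least. For miR-222 it replaced none, so its fold is an estimate and not a bound. miR-222 reached the minimum of 3 arrays for the test only through the denervation arrays, which favours a lower call, so its p-value is not given.

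miR-212 is induced by neuronal activity and CREB. It read 109.9, 141 and 112 after denervation, 36.8, 46.8 and 44.01 after entrapment and 49.8, 38.01 and 44.6 after decompression, without overlap between the first pair of groups, a 2.84-fold difference (log2 -1.51 ± 0.15 SE, adjusted p = 9.64e-05). miR-34a, a target of p53 that restrains the cell cycle, went the other way. It read 876, 1003 and 899 after denervation, 1302, 1501 and 1604 after entrapment and 1627, 1575 and 1689.7 after decompression, and was 1.58-fold higher after entrapment (log2 0.66 ± 0.10 SE, adjusted p = 0.000831). Without scaling this was 0.22 and did not pass. Its relatives miR-34b and miR-34c, with log2 differences of 0.16 and -0.01, did not pass, nor did miR-31 (-0.50), miR-146a (-0.43) and miR-223 (-0.41). miR-31 passed as lower without entrapment replicate 2 (-0.76), and miR-146a without entrapment replicate 3 (-0.57). Without scaling, miR-31 (-0.94), miR-146a (-0.88) and miR-223 (-0.86) also passed, so that the list had 7 lower and 0 higher members. miR-34b passed as higher in 5 alternatives, among them quantile normalization (0.65), cyclic loess (0.45) and the files labelled decompression (0.59).

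**Figure D2:**
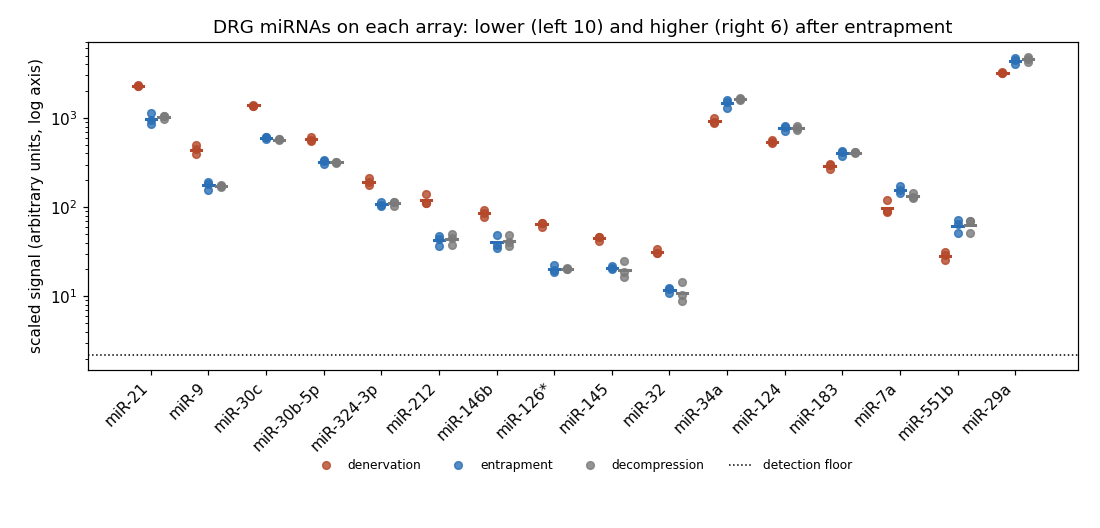
Scaled signal (logarithmic axis, arbitrary units) of 16 miRNAs on each DRG array, with a point for every array, a bar at the geometric mean of each group and a dotted line at the detection floor of 2.21. In the left 10 the 3 denervation points lie above the 3 entrapment points, in the right 6 below them, and the decompression points lie beside the entrapment points.

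Of 12 tested miRNAs known from neurons, 4 were higher after entrapment (miR-124, miR-7a, miR-128 and miR-328), 2 were lower (miR-9 and miR-212) and 6 did not pass the test. The median log2 difference was 0.15, and -0.29 without scaling, where none of the 4 was called. miR-9, a miRNA of neural progenitors and of some mature neurons, read 442, 391 and 497 after denervation, 154, 189 and 184 after entrapment and 178, 171 and 169 after decompression. Its groups stood far apart, 2.52-fold (log2 -1.34 ± 0.11 SE, adjusted p = 4.06e-05), and its call held under every alternative. miR-9*, from the other arm of the same hairpins, read 308, 287 and 317 after denervation and 278, 345 and 318 after entrapment, and these overlapped (log2 0.04, 95% interval -0.19 to 0.27).

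miR-124, the most widely used marker of differentiated neurons, read 561, 541 and 523 after denervation, 710.4, 784 and 806 after entrapment and 809, 724 and 770.3 after decompression. The entrapment arrays were all above the denervation arrays (log2 0.50 ± 0.08 SE, adjusted p = 0.00133), although the value was 0.06 without scaling. miR-7a, a miRNA of neurons and neuroendocrine cells, read 91.2, 87.8 and 121 after denervation and 143, 155 and 174 after entrapment (log2 0.66 ± 0.14 SE, adjusted p = 0.00543). miR-128 read 67.4, 69.3 and 71.2 after denervation and 84.3, 92.7 and 98.9 after entrapment (log2 0.41 ± 0.08 SE, adjusted p = 0.00368). For both, the groups did not overlap.

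miR-328 had the smallest margin of the 4 higher neuronal miRNAs (log2 0.57 ± 0.16 SE, adjusted p = 0.0244), and its call was lost without denervation replicate 1 or 2 or entrapment replicate 1 or 3, with values of 0.44 to 0.59, and with the files labelled decompression (0.32). The 6 that did not pass, miR-9*, miR-137, miR-138, miR-218, miR-326 and miR-383, had log2 differences of -0.04 to 0.23. Of these, miR-138 passed as higher without entrapment replicate 1 (0.29) and with the percentile taken over miRNAs detected on all 9 arrays (0.26), and miR-326 (0.38) and miR-383 (0.92) passed as higher with quantile normalization. The summed scaled signal of the 12 was 3247 to 3401 on the denervation arrays and 3275 to 3742 on the entrapment arrays, and these ranges overlapped.

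The cluster of miR-183, miR-96 and miR-182, at chr4:59752246-59756153, is transcribed as 1 precursor in sensory neurons and hair cells, and all 3 miRNAs were detected on all 6 arrays. miR-183 read 267, 297 and 301 after denervation, 377, 411 and 420.1 after entrapment and 401, 412 and 412 after decompression, and every entrapment array was above every denervation array (log2 0.48 ± 0.08 SE, adjusted p = 0.00137). miR-96 read 1589.6, 1719.6 and 1810.3 after denervation and 1896, 2166 and 2134 after entrapment, also apart (log2 0.27 ± 0.08 SE, adjusted p = 0.0327). miR-182 read 282, 296 and 313 after denervation and 254, 277 and 294 after entrapment and overlapped (log2 -0.11 ± 0.10 SE, adjusted p = 0.393). Without scaling the median of the 3 was -0.17 beside 0.27 with it, neither miR-183 (0.04) nor miR-96 (-0.17) was called, and miR-182 was called lower (-0.56). The call of miR-96 was also lost without denervation replicate 1 or 2, entrapment replicate 2 or 3, or decompression replicate 2 (0.22 to 0.28). The summed signal of the cluster was 2139 to 2424 after denervation and 2527 to 2854 after entrapment.

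Of 5 tested miRNAs known from glia and myelin, 3 were lower after entrapment (miR-338*, miR-219-5p and miR-140*) and none was higher, with a median log2 difference of -0.33, which was 0.00 with quantile normalization. miR-338 and miR-219 are known to drive myelinating glia to mature. The main strand miR-338 read 12464, 10881 and 11617 after denervation and 10355, 12320.5 and 11705 after entrapment, with overlap (log2 -0.03, 95% interval -0.25 to 0.19). miR-338* read 21.2, 15.5 and 19.9 after denervation and 5.6, 2.29 and 8.75 after entrapment, apart between the groups (log2 -1.96 ± 0.46 SE, adjusted p = 0.0115). miR-219-5p was just past the threshold (log2 -0.49, adjusted p = 0.049) with groups that overlapped. Its call was lost in 16 of 25 alternatives, among them each of the 8 that left out an array other than entrapment replicate 2 (-0.57 to -0.33), and its sign turned to 0.18 with quantile normalization. miR-140* was -0.33 (adjusted p = 0.0203), and its call was lost without denervation replicate 1 or 2 or entrapment replicate 1 or 3 (-0.33 to -0.26). With the files labelled decompression neither miR-219-5p (-0.37) nor miR-140* (-0.18) was called.

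Markers of other cells in the ganglion were listed as well. Of 6 tested leukocyte miRNAs, 4 were lower after entrapment and none was higher, with a median log2 difference of -0.59 (2 were lower with quantile normalization and with cyclic loess, and all 6 without scaling). The count depended on the labels: with the files labelled decompression in the place of entrapment, only miR-146b was called (-1.03), the median was -0.20, and miR-150 (-0.26), miR-142-3p (-0.15) and miR-142-5p (-0.13) were not called. The summed signal of the 6 was 911 to 1404 on the denervation arrays and 684 to 784 on the entrapment arrays. miR-146b, which is induced by inflammatory signals, read 77.9, 92.9 and 86.8 after denervation, 34.8, 37.8 and 49.2 after entrapment and 48.2, 37.1 and 40.96 after decompression, a 2.13-fold difference without overlap (log2 -1.09 ± 0.15 SE, adjusted p = 0.00064). miR-150 of mature lymphocytes read 61.4, 60.5 and 68.6 after denervation and 39.98, 46.6 and 49.3 after entrapment (log2 -0.49, adjusted p = 0.0149), and it was not called without denervation replicate 3 (-0.43).

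miR-142-3p and miR-142-5p come from 1 hairpin that is active in nearly all blood cells. miR-142-3p read 407, 527 and 728 after denervation and 419, 333 and 262 after entrapment, with overlap (log2 -0.70, adjusted p = 0.0473). miR-142-5p read 47.5, 53.9 and 68.7 after denervation and 41.6, 36.4 and 24.97 after entrapment, without overlap (log2 -0.74, adjusted p = 0.0287). Both calls rested on few arrays: that of miR-142-5p was lost without denervation replicate 2 or 3 or entrapment replicate 3 (-0.77 to -0.53), and that of miR-142-3p in 18 of 26 alternatives, among them leaving out any array but denervation replicate 1 and entrapment replicate 1 (-0.71 to -0.48). miR-223 of myeloid cells read 166, 196 and 246 after denervation and 149, 152 and 149 after entrapment, which did not overlap but did not pass (adjusted p = 0.256).

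In the vessel wall list, 2 of 4 tested miRNAs were lower after entrapment (miR-126* and miR-145) and none was higher, with the same count under all 5 other scalings. miR-126*, from the hairpin within the endothelial gene Egfl7, read 66.4, 59.7 and 67.2 after denervation, 18.9, 19.6 and 22.2 after entrapment and 20.1, 20.2 and 20.8 after decompression. The groups stood 3.19-fold apart (log2 -1.67 ± 0.09 SE, adjusted p = 2.32e-06). The main strand, miR-126, read 540.2, 495 and 612 after denervation and 522, 576 and 571 after entrapment and overlapped (log2 0.02, 95% interval -0.24 to 0.29). miR-145 of smooth muscle read 42.04, 46.3 and 46.2 after denervation, 20.8, 21.7 and 20.5 after entrapment and 18.8, 16.4 and 24.6 after decompression (log2 -1.09 ± 0.14 SE, adjusted p = 0.000418), whereas miR-143, its companion in 1 transcript, read 842, 872 and 907 after denervation and 1029, 1068 and 1006 after entrapment and did not pass (log2 0.24, adjusted p = 0.205). The summed signal of the 4 was 1473 to 1633 after denervation and 1591 to 1685 after entrapment.

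The 2 erythroid miRNAs, miR-144 and miR-451, varied widely within the groups and did not pass. miR-451 read 953, 581 and 1334 after denervation and 2478, 1029 and 773 after entrapment (log2 0.47, 95% interval -0.77 to 1.71) and spread more widely within a group than between the groups. Of 5 tested muscle miRNAs, 1 was lower, 1 was higher and 3 did not pass, with a median log2 difference of -0.61 that turned to 0.10 with quantile normalization, and a summed signal of 248 to 280.1 after denervation and 251 to 341 after entrapment. miR-133a was lower after entrapment (log2 -0.61, adjusted p = 0.0144) and miR-133b was higher (log2 0.49, adjusted p = 0.0244), although their sequences differ at only 1 of 22 bases (G22A, counted from the 5′ end of miR-133a). miR-133a turned to 0.10 with quantile normalization and was not called without denervation replicate 1 (-0.58). miR-133b was not called without scaling (0.05), nor without denervation replicate 1 or 3 or entrapment replicate 2 or 3 (0.39 to 0.49). Nor was miR-133a called with the files labelled decompression (-0.22). miR-1, miR-206 and miR-499 did not pass, but miR-1 (-1.06) and miR-499 (-0.75) were lower without scaling, which gave the list 3 lower and 0 higher members. None of the 7 epithelial miRNAs was detected on enough arrays to be tested.

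**Figure D3:**
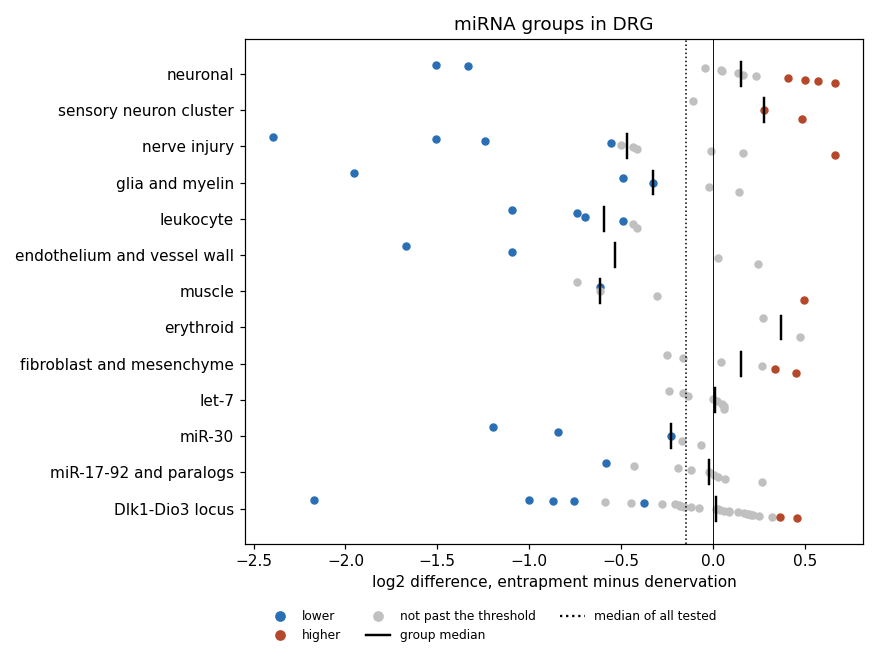
Each point is a tested member of a miRNA list, placed by its log2 difference, entrapment minus denervation, with black bars at list medians and a dotted line at the median of all 215 tested miRNAs (-0.15). Lower calls were 4 of 10 in the nerve injury list, 4 of 6 in the leukocyte list and 3 of 5 in both the glia and the miR-30 lists, beside 32.1% of all tested, and higher calls were 4 of 12 in the neuronal, 2 of 3 in the sensory neuron and 2 of 6 in the fibroblast list, beside 8.37%.

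Families with a shared seed were compared next. In the miR-30 family, which is broadly expressed, 3 of 5 members were lower (miR-30b-5p, miR-30c and miR-30e) and the median log2 difference was -0.23, negative under every scaling. miR-30c read 1399.5, 1367 and 1368 after denervation, 578, 614 and 612 after entrapment and 576, 579 and 559.7 after decompression, with a spread within the groups far below the 2.29-fold difference between them (log2 -1.20 ± 0.06 SE, adjusted p = 2.32e-06). miR-30b-5p read 613, 570.1 and 556 after denervation and 302, 339 and 329 after entrapment (log2 -0.84 ± 0.07 SE, adjusted p = 4.81e-05). These 2 were called under every alternative.

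The other members of the family had smaller differences. miR-30e was -0.23 (adjusted p = 0.0424) and lost its call without any of the denervation arrays, entrapment replicate 1 or 3, or decompression replicate 2 or 3 (-0.24 to -0.18). miR-30a, with a log2 difference of -0.06 and a 95% interval of -0.23 to 0.10, and miR-30d, with -0.17 and -0.35 to 0.00, did not pass. These intervals do not reach the value of miR-30c. Whether the members differ from each other was not tested.

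The let-7 family, the most abundant miRNA family of many adult tissues, had 8 members tested and none called, with log2 differences of -0.24 to 0.06 and a median of 0.01 (-0.43 without scaling, where 4 were called lower, -0.05 with median scaling, where 1 was, and -0.03 with cyclic loess, where 2 were). Of 9 tested members of the miR-17-92 cluster and its paralogs, which promote proliferation, 1 was lower (miR-19a, log2 -0.58, adjusted p = 0.0193) and 8 did not pass, but without scaling 8 of the 9 were lower. miR-19a was not called without denervation replicate 2 or 3 (-0.59 and -0.52), nor with the files labelled decompression (-0.05). The fibroblast list had 6 members tested. Of these, miR-29a and miR-29b, which repress collagens, were higher (log2 0.45 and 0.33), and without scaling they read 0.01 and -0.11 and were not called. miR-29c, with the same seed AGCACCA, was 0.04 and did not pass.

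The Dlk1-Dio3 locus is an imprinted region that holds the largest miRNA cluster of mammals and is active in neurons. The list used here holds 31 tested miRNAs of it and leaves out several passenger strands, such as miR-376a* and miR-379*. Of the 31, 5 were lower (miR-323, miR-376c, miR-409-5p, miR-487b and miR-541), 2 were higher (miR-154 and miR-410) and 24 did not pass, with a median log2 difference of 0.01. The split moved with the scaling, from 17 lower and 0 higher without any to 2 lower and 11 higher with quantile normalization. Among the 5 lower, miR-487b and miR-376c reached the minimum of 3 arrays for the test only through the denervation arrays, which favours a lower call. miR-487b read 27.2, 27.1 and 26.4 after denervation and 4.74, 6.02 and 7.45 after entrapment, where no array detected it. It was 4.51-fold lower, an estimate and not a bound. miR-541 read 24.9, 24.6 and 26.9 after denervation and 10.8, 13.1 and 14.5 after entrapment (log2 -1.003, adjusted p = 0.000734). Both were called lower under every alternative, whereas the calls of miR-323 (in 16 of 26 alternatives), miR-154 (8) and miR-410 (8) were often lost. For miR-154 the arrays on which this rested were denervation replicates 1 and 3 and entrapment replicates 2 and 3 (0.36 to 0.44 without 1 of them). For miR-410 they were the same 4 and decompression replicate 2 (0.29 to 0.37), and for miR-323 every array but denervation replicate 1 and entrapment replicate 2 (-0.39 to -0.26). With the files labelled decompression in the place of entrapment, miR-323 (-0.30) and miR-154 (0.33) were not called.

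By position, 157 tested names had 1 hairpin in the RefSeq table, and 7 groups of at least 3 names lay within 10 kb of a neighbour. The cluster of miR-322, miR-503, miR-450a and miR-542 at chrX:137720933-137726241, which restrains the cell cycle in differentiating cells, was the one with the lowest median, -1.36 over 6 tested strands. Of these, 4 were lower after entrapment, beside 32.1% of all tested miRNAs, and miR-542-3p and miR-542-5p did not pass. Among the 4, miR-450a and miR-503 reached the minimum of 3 arrays for the test only through the denervation arrays, which favours a lower call. miR-322 read 146, 207 and 146 after denervation, 75.5, 94.5 and 107 after entrapment and 62.3, 101 and 91.7 after decompression, without overlap (log2 -0.84 ± 0.22 SE, adjusted p = 0.0201), and its call was lost without denervation replicate 2 (-0.67) or entrapment replicate 1 (-0.71). miR-503 read 14.4, 21.1 and 15.00 after denervation and the floor, 4.77 and 8.95 after entrapment, and was detected on 1 entrapment array (log2 -1.86 ± 0.54 SE, with the p-value left out because of its detection). Its call was lost without any denervation array, entrapment replicate 1 or entrapment replicate 2 (-2.01 to -1.34). That of miR-322* (log2 -1.40, adjusted p = 0.0357) was lost without the same arrays or decompression replicate 2 (-1.52 to -0.95). miR-450a was on no entrapment array and 3.52-fold lower, an estimate and not a bound. In the Dlk1-Dio3 region, the stretch at chr6:134314731-134331416 had 0 of 8 strands called, and the one at chr6:134543445-134579838 had 6 lower and 2 higher of 20, with miR-376a* (log2 -0.94) and miR-379* (-0.92), which the list above leaves out, among the lower ones. Of the 6 lower, miR-487b, miR-376a* and miR-376c also reached the minimum of 3 arrays only through the denervation arrays.

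Both strands of 30 hairpins were tested. Calls were opposite in 1, both lower in 5, made for 1 strand alone in 15 and absent in 9. miR-125b*, 1 of the 10 largest lower differences, read 9.02, 9.97 and 8.61 after denervation. After entrapment it lay at or just above the floor, detected on 1 array (log2 -2.05 ± 0.13 SE, adjusted p = 7.48e-06). Its call held under every alternative. In mir-29a, miR-29a read 3165, 3162 and 3232 after denervation and 4004, 4675 and 4399 after entrapment, and was higher (log2 0.45 ± 0.08 SE, adjusted p = 0.00311), although it was not called without scaling (0.01). miR-29a* read 14.96, 16.7 and 15.97 after denervation and the floor, the floor and 5.37 after entrapment, where no array detected it. It was 5.34-fold lower, an estimate and not a bound. It reached the minimum of arrays for the test only through the denervation arrays, which favours a lower call, so its p-value is not given. The groups were apart for each strand.

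In 10 hairpins the strand with the dimmer signal was lower after entrapment while the brighter one did not pass, as in miR-126, miR-338, miR-138, miR-140 and miR-181a. Of these dimmer strands, miR-138*, miR-181a*, miR-376a*, miR-384-3p and miR-532-3p reached the minimum of arrays for the test only through the denervation arrays, which favours a lower call. The reverse, a lower brighter strand beside a dimmer one that did not pass, was seen in 4, namely miR-9, miR-324, miR-340 and miR-409. Of their brighter strands, miR-340-5p reached the minimum only through the denervation arrays. Over the 30 hairpins the dimmer strand had the lower log2 difference in 21. The 21 include the dimmer strands just named for their detection, and also miR-29a* and miR-125a-3p, which reached the minimum in the same way. Brightness depends on the probe as well as on the amount of RNA. The negative control feature also differed between the groups, with the values given above, and its part in this pattern was not tested.

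**Figure D4:**
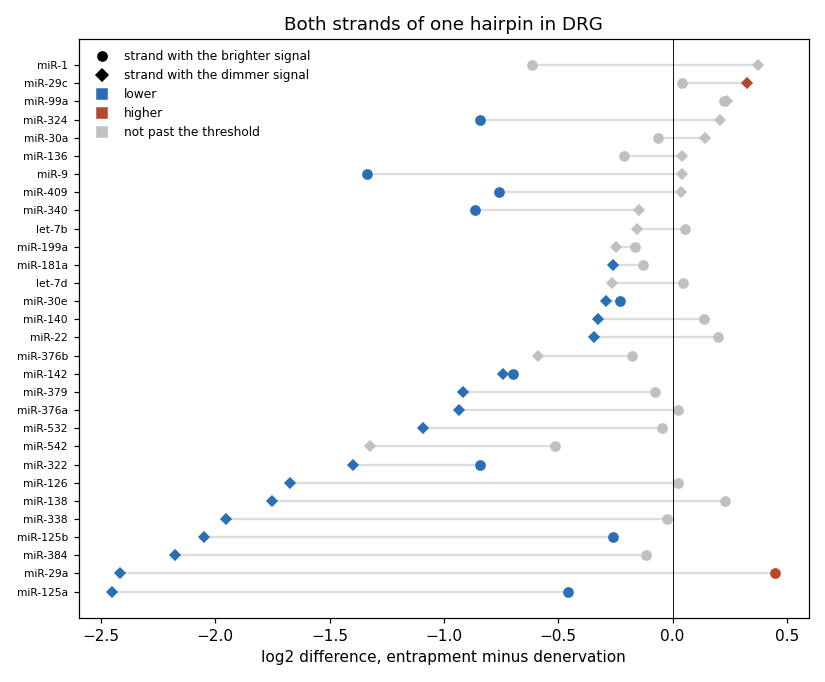
For each of 30 hairpins with both strands tested, a circle marks the log2 difference, entrapment minus denervation, of the strand with the brighter signal and a diamond that of the strand with the dimmer signal. The diamonds lie to the left in 21 hairpins, and only mir-29a has strands called in opposite directions. The lower call of miR-29a* carries the limit given in the text.

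The denervation arrays detected more miRNAs. Of the 215, 19 were detected on all 3 denervation arrays and on no entrapment array, and 0 showed the reverse. These 19 were picked by their detection calls, and 10 of them, on no decompression array either, entered the test through the denervation arrays alone, so the lower values of the 19 describe the choice, and those first named here are given without a test. miR-190, a miRNA hosted by the gene of the cytoskeletal protein talin 2, read 23.3, 21.1 and 23.5 after denervation and lay at the floor on every entrapment and decompression array, at least 8.96-fold lower. miR-374, which read 11.3, 12.2 and 10.6 after denervation, was at least 4.49-fold lower, and miR-384-3p, which read 11.9, 9.88 and 8.54, at least 3.97-fold.

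For the rest of the 19 the fold was smaller than that of miR-190. miR-125a-3p, from the hairpin of miR-125a-5p, was at least 5.33-fold lower. miR-138*, miR-350, miR-339-3p, miR-505, miR-532-3p, miR-376a*, miR-376c, miR-340-5p and miR-874 were 1.39 to 2.95-fold lower. These folds are estimates for miR-350, miR-532-3p, miR-376c and miR-340-5p and bounds for the others. The signals of miR-346 overlapped between the groups. miR-1* read 11.4, 10.8 and 7.64 after denervation and 13.7, 12.5 and 12.00 after entrapment, higher in signal although not detected there, so a missing detection call is not always a lower signal.

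**Figure D5:**
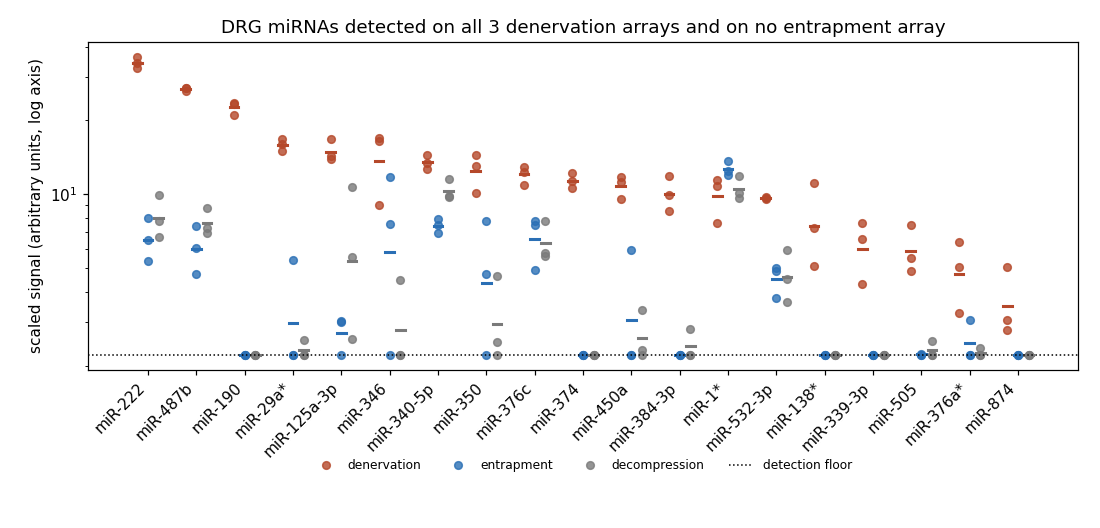
Scaled signal (logarithmic axis, arbitrary units) of the 19 miRNAs detected on all 3 denervation arrays and on no entrapment array, with a point per array, a bar at the geometric mean of each group and a dotted line at the detection floor of 2.21. Entrapment and decompression points lie at or near the floor for most, and miR-1* lies above its denervation points.

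The study singles out a few miRNAs of the DRGs, which were set out here in full. miR-324-3p read 190.1, 210.3 and 176 after denervation, 103, 114 and 105 after entrapment and 115, 103 and 113 after decompression, a 1.79-fold difference between the first pair of groups with no overlap (log2 -0.84 ± 0.09 SE, adjusted p = 0.000171) that was called under every alternative. miR-320 read 20.1, 21.1 and 14.9 after denervation and 10.9, 11.8 and 14.8 after entrapment, and its groups almost touched (log2 -0.57, adjusted p = 0.0244). It was not called without denervation replicate 1 or 2 or entrapment replicate 1 or 2 (-0.54 to -0.48) or with the files labelled decompression (-0.34), and turned to 0.06 with quantile normalization. miR-672 and miR-466b overlapped, with log2 differences of -0.15 (95% interval -0.89 to 0.58) and -0.10 (-0.73 to 0.54). miR-144 read 148, 107 and 217 after denervation and 398, 148 and 102 after entrapment, a wide spread in both groups (log2 0.27, 95% interval -1.09 to 1.62).

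Among the higher miRNAs, miR-551b had the largest difference and was the only one called without scaling. It read 31.2, 28.8 and 25.4 after denervation, 51.4, 64.3 and 72.6 after entrapment and 68.98, 51.5 and 69.9 after decompression, a 2.19-fold difference (log2 1.13 ± 0.17 SE, adjusted p = 0.000838). miR-500 read 62.99, 62.9 and 64.7 after denervation and 91.7, 89.3 and 98.6 after entrapment (log2 0.55 ± 0.07 SE, adjusted p = 0.000457), and 0.11 on the log2 scale without scaling. Neither pair of groups overlapped.

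Entrapment was then set against decompression, the condition most like it, to see whether its miRNAs were still different once the nerve had been freed for 3 months. limma called 0 of the 215 (0%) at an adjusted p under 0.05, while an unadjusted p under 0.05 was reached by 9 lower and 1 higher miRNAs. The lowest adjusted p was 0.214, for miR-340-5p, which read 6.92, 7.49 and 7.89 after entrapment and 9.86, 9.76 and 11.5 after decompression. The median size of the log2 difference was 0.0741, beside 0.259 between entrapment and denervation. For 192 of the 215 the 95% interval of the difference lay within 1 log2 unit of 0 on either side, and for 77 of the 87 that differed between entrapment and denervation. A difference within these intervals was not detectable with 3 arrays per group.

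miR-21, for example, read 857, 1134 and 942 after entrapment and 959, 1060.2 and 1037 after decompression, a log2 difference of -0.07. For miR-9 the difference was 0.02, for miR-30c 0.07 and for miR-126* -0.01. The leukocyte miRNAs miR-142-3p (-0.55), miR-142-5p (-0.61) and miR-223 (-0.53) were further from 0 and did not pass either. Decompression and entrapment share the denervation arrays as their comparator. Against these, decompression had 76 called miRNAs (35.3%), 58 lower and 18 higher. Because the processed table exchanges the names of these arrays, a direction between the groups of entrapment and decompression would turn with the choice of labels.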

How the data were processed

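Total RNA of L4-L6 DRGs was labelled with Cy3 and hybridized to Agilent rat miRNA arrays. The deposited labels describe linear amplification and the methods a ligation of pCp-Cy3. Per the file headers the authors deposited, from Agilent Feature Extraction 9.5.3, a total gene signal per miRNA, a background-subtracted intensity not normalized between arrays, and a detection call. The files used here do not identify slide or scan.

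Arrays were scaled to the 75th percentile over 348 miRNAs, signals under a floor (the median over the 9 injury arrays of the lowest detected scaled signal) were raised to it, and values were logged to base 2. limma 3.58.1 (lmFit and eBayes, R 4.3.3) was fitted to the 9 DRG injury arrays with the group as the only term and 6 residual degrees of freedom, for the 215 miRNAs detected on at least 3 of them. Tests were two-sided, with Benjamini-Hochberg adjustment over the 215 and a threshold of 0.05. The script was tested on simulated data. The sham array entered 1 alternative only.

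The miRNAs named are the 10 with the largest difference in each direction among those called without overlap, every miRNA detected on all 3 arrays of 1 group and none of the other, those that the study names for DRGs, tested members of the cell type and injury lists, and called members of the family and locus lists. Others (such as miR-30a, miR-29c, miR-542, miR-181a) were named after their values were seen. Members and lists were chosen with earlier results of these data known. Lists are described by counts and medians only. Alternatives covered the scaling, filter, floor, pseudocount, the deposited table of processed values, the model and leaving out each array. Plots were made in Python 3.11.15 with matplotlib 3.10.9.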

Additional observations from a re-analysis of the deposited data

How the results depend on the processing

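The count of lower miRNAs, 69 after entrapment against denervation, became 133 without scaling, 38 with quantile normalization and 43 among miRNAs detected on all 6 arrays, where fewer were tested (174). The count of higher miRNAs, 18, became 1 without scaling, 48 with quantile normalization and 37 with cyclic loess (which had 59 lower). Lower miRNAs made up 79.3% of the called ones, 99.3% without scaling, 44.2% with quantile normalization and 61.5% with cyclic loess, while the median of all tested miRNAs moved from -0.15 to -0.59, 0.03 and -0.04. When each array was left out in turn, 46 to 64 were lower and 10 to 20 higher. The lower count was 46 without denervation replicate 3 or entrapment replicate 1, 47 without denervation replicate 1, and 49 without denervation replicate 2, and the higher count was 10 without denervation replicate 1, 11 without entrapment replicate 3 and 12 without entrapment replicate 2. The other settings (median scaling, the percentile over miRNAs detected on all 9 arrays, no filter, an unscaled floor of 0.01, a pseudocount of 1, the processed table, an intensity trend, a robust fit, only the groups compared, all 10 DRG arrays) gave 55 to 76 lower and 14 to 24 higher. Between entrapment and decompression 0 were called under each setting that could test it, which leaves out the fit to only the groups compared and the exchange of labels.

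Without scaling 8 of the 18 higher miRNAs changed sign, and 6 and 3 of the 69 lower ones did with quantile normalization and cyclic loess. Among the named miRNAs that were called in the main or in the alternative setting, the sign turned without scaling for miR-128 (-0.037), miR-96 (-0.17), miR-29b (-0.11), miR-410 (-0.081) and miR-29c* (-0.12), and with quantile normalization for miR-320 (0.063), miR-219-5p (0.18), miR-133a (0.10) and miR-383 (0.92, then called higher, adjusted p = 0.00517). Further named miRNAs, called in neither setting, also turned in at least 1 alternative. Examples are miR-137 (down to -0.28), miR-143 (down to -0.20) and miR-672 (up to 0.22). The scalings differ by construction in the level they set equal, and what else moved these values was not tested. Replicate numbers were not used to pair the arrays. Deviations of same-numbered denervation and entrapment arrays correlated at 0.34, 0.48 and -0.02, and not every array correlated best with its own number. With 3 arrays per group these values cannot settle whether same-numbered arrays belong together. With the replicate block 64 were lower and 19 higher, of which 63 and 17 were also called without it. The number of arrays and a dim signal limit the precision, and for 41 tested miRNAs at least 1 of the 6 arrays gave no detection.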

Other observations

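Other lists added little. None of the 5 miRNAs of the miR-290 cluster on the array, known from early embryos, was detected on enough arrays to be tested. Of a list meant for an X-linked testis cluster, miR-872 and miR-874 were tested and both were lower after entrapment (log2 -0.34 and -0.66), but RefSeq places their hairpins on chromosomes 5 and 17, so the list does not describe 1 locus. The calls of both were lost in several alternatives, 13 of 26 for miR-872, with any array left out but decompression replicates 1 and 3 among them (-0.39 to -0.29), and 7 of 25 for miR-874. miR-874 was detected on no entrapment or decompression array, so it entered the test through the denervation arrays alone and its lower value describes that choice.

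The miR-26 and miR-125 families, chosen after their values were seen, were lower in step with each other. miR-26a and miR-26b share the seed UCAAGUA and had log2 differences of -0.31 and -0.25 (limma, adjusted p = 0.0244 and 0.0442). miR-125a-5p and miR-125b-5p share the seed CCCUGAG and had -0.46 and -0.26 (adjusted p = 0.00227 and 0.0487). miR-125a-5p was called under every alternative, whereas miR-26a lost its call in 3 of 26 alternatives, miR-26b in 12 and miR-125b-5p in 15. Of these losses, leaving out an array accounted for 3, 9 and 8, and the log2 difference then lay between -0.32 and -0.30 for miR-26a, -0.30 and -0.18 for miR-26b, and -0.30 and -0.19 for miR-125b-5p. miR-125b-5p was also not called with the files labelled decompression (-0.20).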
